A study of Mus musculus with 8 samples.

Results

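The measurements are mRNA signals of mouse livers that expressed A20 or β-galactosidase (βgal) from a recombinant adenovirus (rAd.), before and 24 h after an extended (78%) liver resection (LR). The quantity described here is the difference between the responses of both kinds of liver to LR. For each gene the log2 change from before to after resection in rAd.βgal livers was subtracted from that in rAd.A20 livers, which is the interaction of transgene and resection. All 8 arrays of the 8 in the series were used, 2 in each of 4 groups (pre-βgal, post-βgal, pre-A20 and post-A20). The mice were BALB/c, 8 weeks of age, and had been given either virus through a vein 5 days before surgery, so that the control livers were also infected. Per the study's methods the transgene was expressed in 30% to 40% of hepatocytes, and no share was given for the other cells of the liver. Pre-resection RNA came from the excised lobes and post-resection RNA from the remnant, and each array held the pooled RNA of 3 mice. Arrays were assigned by their source names, because the treatment entry of the post-A20 records repeats the wording used for βgal. The A20 transgene was human and the probe sets are those of mouse genes, so its level was not checked here. The study reports that PCR found both transgenes in the livers used for the arrays.

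A20, encoded by Tnfaip3, is a ubiquitin-editing protein that is induced by NF-kB and restrains NF-kB in turn. After loss of liver mass the remnant first receives cytokine and growth factor signals, makes acute phase proteins and induces immediate early genes. Hepatocytes then enter the cell cycle while the liver goes on with bile formation, lipid handling and protein secretion. A difference of responses has 4 terms, so a value above 0 can come from a larger increase, a smaller decrease or a lower starting level with A20, and the signals of all 8 arrays are therefore given for the leading genes. In pooled tissue RNA, fewer cells of a type and less RNA per cell cannot be told apart.

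The array medians lay between 153 and 166. Replicate arrays correlated at 0.962 in pre-βgal and at 0.983 to 0.987 in the other groups (Pearson's r of log2 signals across probe sets). The 3' to 5' ratio of the β-actin probe sets, a sign of RNA integrity, was 6.997 on pre-βgal replicate 1 and 3.64 on post-βgal replicate 1, and 1.27 to 1.62 on the other 6 arrays. The same ratio for pyruvate carboxylase was 10.25 and 8.88 on these βgal replicate 1 arrays. It was 6.23 on post-A20 replicate 1 and 3.42 to 4.32 on the remaining arrays. For some genes and lists the value without both βgal replicate 1 arrays is also given. The liver origin of the RNA was visible in the hepatocyte markers. Alb, the major plasma protein of hepatocytes, read 18087 to 19358 on the 8 arrays, and the sum of 10 hepatocyte markers lay between 82736 and 105640. The labels do not say whether pools shared litters, cages or days, nor whether equally numbered pools before and after resection came from the same mice. The p-values thus measure the spread between pools of 1 group.

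Across the 17790 genes tested, no difference of responses had an adjusted p under 0.05 (limma with Benjamini-Hochberg adjustment, 0 called, 0%), the smallest being 0.0646. At an unadjusted p under 0.05 there were 2788 genes, 1773 with a higher response under A20 (9.97% of the genes tested) and 1015 with a lower one (5.71%). The middle of the distribution was near 0, with a median of 0.05 and quartiles of −0.18 and 0.26 on the log2 scale, and the median SE was 0.21. In total 472 genes had a difference of more than 1 in size. A criterion of size was used besides, in which the end nearest to 0 of the 2-sided 90% interval of a gene's difference had to be at least 1.5-fold. It was met by 102 genes with a higher response under A20 (0.573%) and by 117 with a lower one (0.658%). Centring each array on its median moved this split to 63 higher and 169 lower. Just inside it lay Clgn, with a near end of 1.503-fold, and just outside it Cyp8b1, with 1.499-fold. The counts rest on single arrays, running from 58 (without post-βgal replicate 1) to 172 (without post-A20 replicate 2) for higher responses. For lower responses they ran from 58 (without pre-A20 replicate 2) to 352 (without pre-βgal replicate 2). Of the 219 genes, 67 met the criterion in each of 9 further fits that left out 1 array or both βgal replicate 1 arrays, 34 higher and 33 lower.

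The responses themselves were compared by their calls and across genes. In βgal livers 267 genes rose after LR (1.5%) and 133 fell (0.748%), and in A20 livers 112 rose (0.63%) and 68 fell (0.382%). Of the 17790 genes, 400 were thus called in βgal livers and 180 in A20 livers. There were 71 genes called in both, 17.8% of the βgal calls and 39.4% of the A20 calls, and 70 of them moved the same way. Across genes, which are not independent replicates, the responses correlated at 0.343 (Pearson's r), and at 0.401 without both βgal replicate 1 arrays. With 2 arrays per group, noise lowers both the shared calls and this correlation, so neither measures how unlike the responses were. These calls too rest on single arrays, with 34 (without post-βgal replicate 1) to 660 (without pre-βgal replicate 2) in βgal livers and 6 (without post-A20 replicate 2) to 473 (without pre-βgal replicate 2) in A20 livers.

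**Figure D1:**
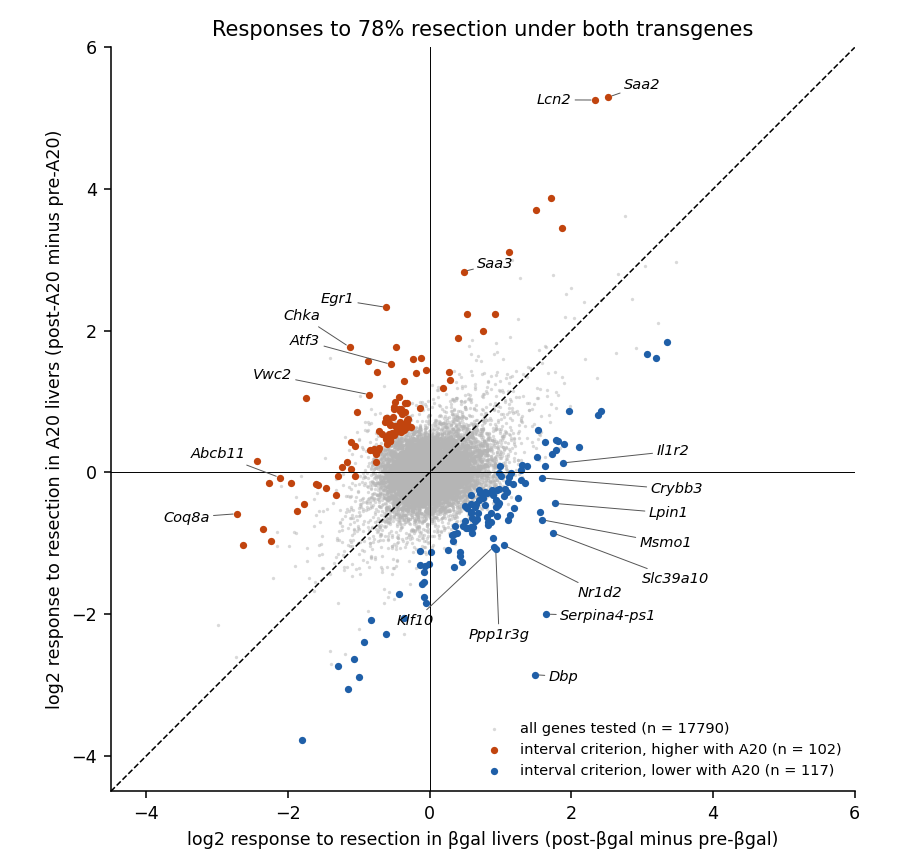
Log2 response to resection in βgal livers (horizontal) against that in A20 livers (vertical), 1 point per gene (n = 17790), with the 102 genes of higher and the 117 of lower response under A20 by the interval criterion in colour. The dashed diagonal marks equal responses, and most coloured genes lie where the responses have opposite signs, with Lcn2 and Saa2 far above the diagonal although they rose under both transgenes.

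The estimates of the responses had opposite signs in most of these genes, although few of those estimates passed the test. Of the 102 genes with a higher response under A20, 73 had a negative estimate in βgal livers and a positive one in A20 livers, 14 a larger increase under A20 and 15 a larger decrease under βgal. Of the 73, 3 passed the test in βgal livers and 5 in A20 livers. Of the 117 genes with a lower response, 77 had a positive estimate in βgal livers and a negative one in A20 livers, 21 a larger increase under βgal and 19 a larger decrease under A20. Of the 77, 15 passed the test in βgal livers and 5 in A20 livers. The groups of arrays that made up the difference also varied. In 79 of the 102 genes the transgenes differed more before resection than after it, and in 60 of the 117. The genes whose response was larger under A20 with the same sign differed mostly before resection (14 of 14 higher, 15 of 19 lower). Those whose response was larger under βgal mostly differed after it, since only 2 of 15 higher and 4 of 21 lower ones differed more before.

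**Figure D2:**
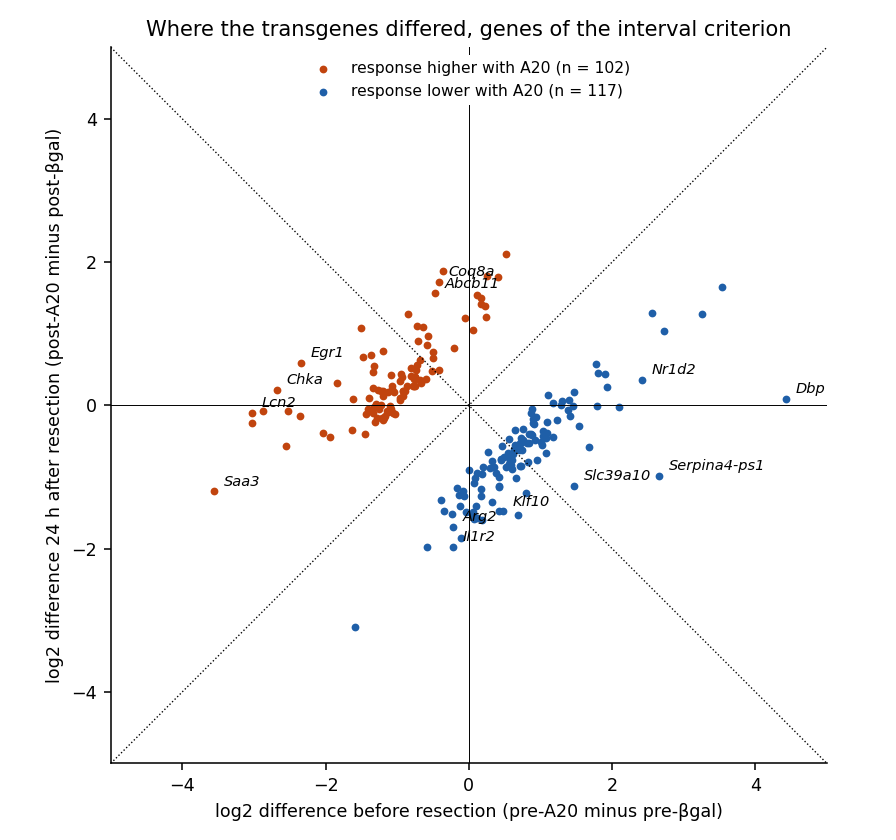
Log2 difference between transgenes before resection (horizontal) against that 24 h after it (vertical) for the 219 genes of the interval criterion, with dotted lines where both are equal in size. Genes near the horizontal axis, such as Lcn2 and Dbp, differed before resection and came together after it, while genes near the vertical axis, such as Il1r2 and Arg2, differed after it.

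Acute phase proteins, which the liver secretes under cytokine signals, included the gene whose interval lay farthest above 0. This gene, Lcn2, lipocalin 2, which withholds iron from bacteria, read 2622 and 2871 in pre-βgal and 209 and 493 in pre-A20. After LR it read 13762 and 14005 in post-βgal and 11810 and 14157 in post-A20. The arrays of both transgenes overlapped after resection but stood far apart before it. Lcn2 thus rose by 2.33 in βgal livers and by 5.26 in A20 livers on the log2 scale, a difference of responses of 2.92 ± 0.47 (SE, adjusted p = 0.212). Saa2, a serum amyloid A that travels on lipoproteins, read 2393 and 2606 in pre-βgal, 15079 and 13810 in post-βgal, 174 and 485 in pre-A20 and 11042 and 13319 in post-A20. Its difference of responses was 2.77 ± 0.55, and that of Saa1 was 2.21 ± 0.53. Saa1 and Saa2 are near-identical copies, so their probe sets may read both. Saa3, a family member also made by macrophages, read 7330 and 3534 in pre-βgal, 5554 and 9086 in post-βgal, 365 and 477 in pre-A20 and 3268 and 2902 in post-A20. It rose by 2.84 in A20 livers, its estimate in βgal livers was 0.48, and its signals under A20 stayed below those under βgal after resection. The difference was 2.36 ± 0.52, and 1.48 without both βgal replicate 1 arrays. Orm2, an orosomucoid of plasma, had a difference of responses of 2.15 ± 0.47, and its 5830 and 6038 in post-A20 exceeded the 3674 and 3775 in post-βgal.

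Of the 25 acute phase genes tested, 8 (32%) had a higher and 1 (4%) a lower response under A20 at an unadjusted p under 0.05. The shares of all genes were 9.97% and 5.71%. The interval criterion was met by 6, each with a higher response (Lcn2, Saa2, Saa1, Saa3, Orm2 and Lbp). The median was 0.15, against 0.05 over all genes, because other members responded alike or less. Orm3, another orosomucoid, rose by 1.63 and 1.78, and Serpina3n, a protease inhibitor, rose by 1.66 and 1.16 in βgal and A20 livers. Fgg, the gamma chain of fibrinogen, rose by 0.66 in βgal livers and had an estimate of 0.24 in A20 livers. In all, 8 members rose in βgal livers and 9 in A20 livers, against 1.5% and 0.63% of all genes. Itih3, which binds hyaluronan, rose by 0.92 in A20 livers with 0.03 in βgal livers, a difference of 0.88 ± 0.17. Without 1 array at a time the list's count of higher responses stayed between 7 and 9, while Lbp, whose dimmer probe set gave 0.28, no longer met the interval criterion in 7 of the 9 fits.

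**Figure D3:**
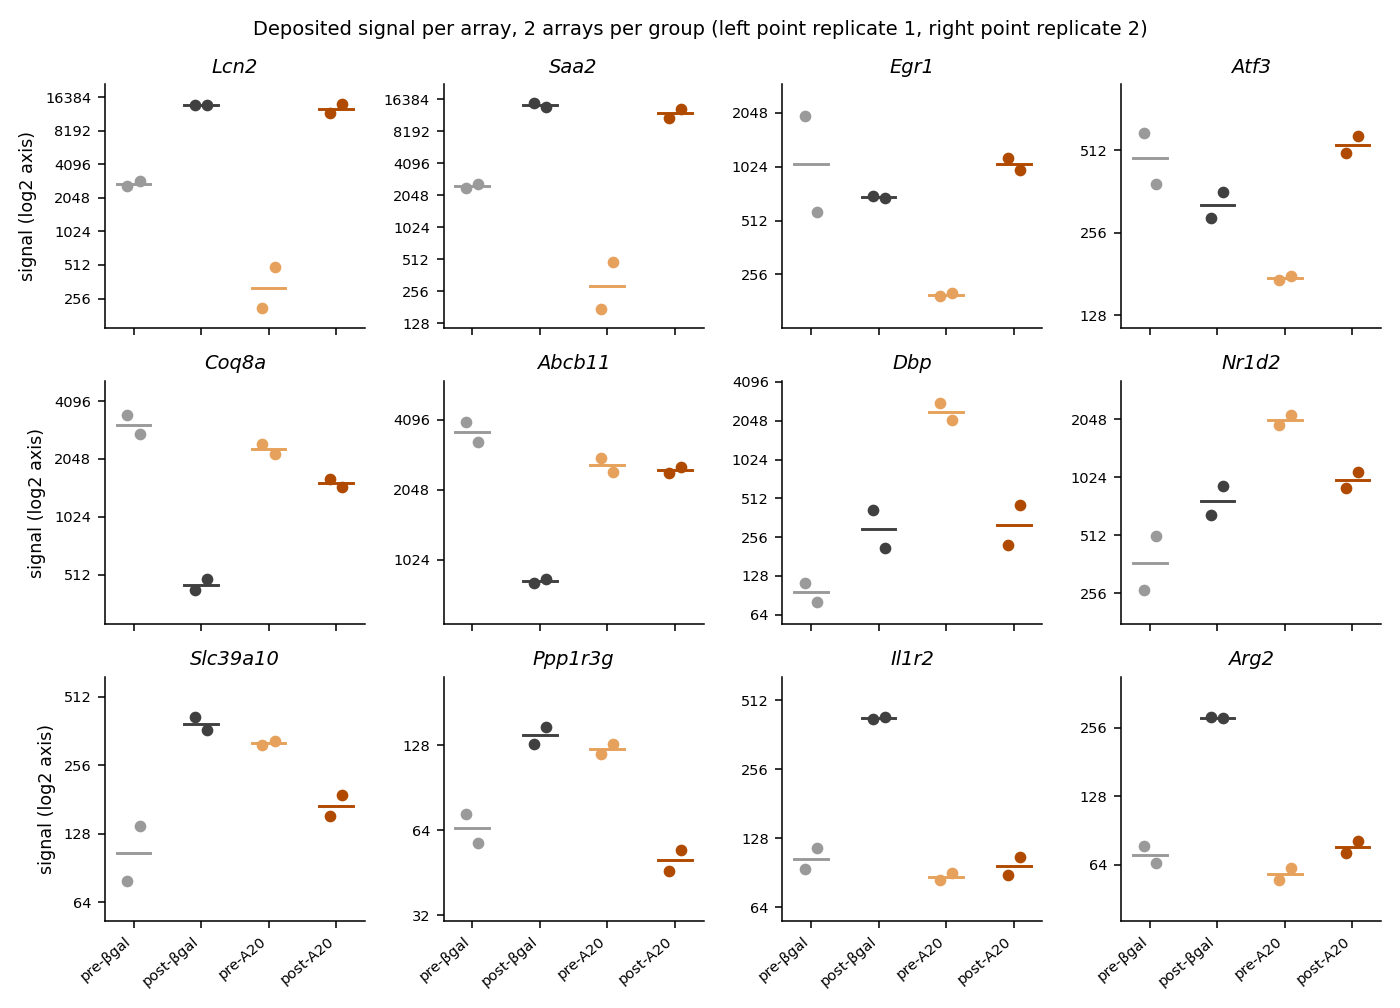
Signal on each array (vertical, log2 axis) for 12 genes, with 1 point per array, replicate 1 on the left, and a line at the mean of both arrays of a group. Lcn2, Saa2, Egr1 and Atf3 were lowest in pre-A20, Coq8a and Abcb11 lowest in post-βgal, Dbp and Nr1d2 highest in pre-A20, and Il1r2 and Arg2 high in post-βgal alone.

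Immediate early genes encode transcription factors that cells switch on within minutes of a stimulus, before new protein is made. Egr1, a zinc finger factor of this class, read 1969 and 576 in pre-βgal, 702 and 685 in post-βgal, 193 and 202 in pre-A20 and 1142 and 980 in post-A20. Its log2 response was −0.61 in βgal livers and 2.33 in A20 livers, a difference of 2.94 ± 0.66 (adjusted p = 0.212), and 2.08 without both βgal replicate 1 arrays. The pre-A20 arrays lay below all others, and the pre-βgal replicates stood wide apart. Atf3, a stress-induced repressor, read 592 and 386 in pre-βgal, 290 and 359 in post-βgal, 173 and 178 in pre-A20 and 499 and 574 in post-A20. It rose by 1.53 in A20 livers, with an estimate of −0.54 in βgal livers. Btg2, an antiproliferative gene, rose by 1.90 in A20 livers with 0.40 in βgal livers, from 303 and 293 in pre-A20 to 1134 and 1184 in post-A20. Klf10, a repressor induced by TGF-beta, went the other way, with 232 and 347 in pre-βgal, 520 and 571 in post-βgal, 366 and 437 in pre-A20 and 166 and 205 in post-A20. Its difference of responses was −1.95 ± 0.29.

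Of the 25 immediate early genes tested, 9 (36%) had a higher and 2 (8%) a lower response under A20 at an unadjusted p under 0.05. The shares of all genes were 9.97% and 5.71%. The lower ones were Klf10 and Dusp1, a MAP kinase phosphatase, and the list's median was 0.22. None of the 25 passed the test in βgal livers, near the shares of all genes, of which 1.5% rose and 0.748% fell there. In A20 livers Atf3, Btg2, Klf4 and Fos rose and Dusp1 fell, against 0.63% and 0.382% of all genes. Without pre-A20 replicate 2 or post-A20 replicate 2 none of these passed the test in A20 livers. Chka, the choline kinase that starts phosphatidylcholine synthesis, followed a course like that of Egr1. It read 2059 and 885 in pre-βgal, 527 and 702 in post-βgal, 195 and 198 in pre-A20 and 780 and 644 in post-A20, a difference of responses of 2.90 ± 0.50, and 2.10 without both βgal replicate 1 arrays. A second probe set of Chka gave 2.62 and another, dimmer one 1.33. The 250 bases before the RefSeq start of Chka hold 2 CCAAT boxes and 1 E2F element, while those of Lcn2 hold none of the 7 motifs searched. Ccnd1, cyclin D1, which drives cells out of G1, read 635 and 2000 in post-A20 and 275 to 511 on the other 6 arrays, a difference of 2.25 ± 0.65 that did not meet the interval criterion without both βgal replicate 1 arrays.

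Abcb11 and Coq8a, genes of bile formation and of mitochondrial quinone synthesis, fell in βgal livers and did not pass the test in A20 livers. Coq8a, an atypical kinase needed for coenzyme Q, read 3479 and 2746 in pre-βgal and 425 and 488 in post-βgal, against 2449 and 2185 in pre-A20 and 1616 and 1467 in post-A20. It fell by 2.72 in βgal livers and had an estimate of −0.58 in A20 livers, a difference of 2.14 ± 0.26 (adjusted p = 0.109). A second, dimmer probe set of Coq8a gave 0.43. Abcb11, the bile salt export pump of the canalicular membrane, read 4012 and 3290 in pre-βgal, 809 and 846 in post-βgal, 2802 and 2425 in pre-A20 and 2406 and 2551 in post-A20. It fell by 2.11 in βgal livers with −0.07 in A20 livers, a difference of 2.04 ± 0.24 (adjusted p = 0.108). The post-βgal arrays lay far below the other 6, which lay between 2406 and 4012. C730049O14Rik, named only by its clone, fell by 2.27 in βgal livers with −0.14 in A20 livers, with 364 and 621 in post-βgal and 1102 to 2932 on the other arrays (2.13 ± 0.41, and 1.44 without both βgal replicate 1 arrays).

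In the list of 25 genes of bile acid synthesis and transport, 7 fell in βgal livers and none passed the test in A20 livers. Over all genes 0.748% fell in βgal livers and 0.382% in A20 livers, so the absence of calls in A20 livers is near the share of all genes. Those that fell included Akr1d1, the bile acid 5β-reductase (−1.60 in βgal and −0.17 in A20 livers, with a difference of 0.40 from a second probe set), Cyp8b1, the sterol 12α-hydroxylase (−1.58 and −0.28), and Nr0b2, the repressor SHP (−1.89 and −0.35). The difference for Nr0b2 was 1.54, and 0.92 without both βgal replicate 1 arrays. Cyp7a1, the rate-limiting enzyme of the pathway, was an exception in its difference of responses (−0.04), since it fell by 1.63 in βgal livers and had an estimate of −1.67 in A20 livers (adjusted p = 0.0502). Its signals were 229 and 293 in post-βgal and 469 and 474 in post-A20. At an unadjusted p under 0.05, 6 members (24%) had a higher and 1 (4%) a lower response under A20, against 9.97% and 5.71% of all genes. The lower one was Slco1a1, an organic anion transporter (−1.69). The median of the list was 0.03 and thus no higher than that of all genes, and 14 of the 25 lay above 0. With 1 array left out, between 1 (without post-βgal replicate 2) and 7 members fell in βgal livers, and 3 fell in A20 livers without either pre-βgal array.

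The smallest p-values belonged to genes with a lower response under A20. Il1r2, the decoy receptor that binds interleukin 1 without signalling, read 94.2 and 116 in pre-βgal, 426 and 431 in post-βgal, 84.2 and 90.045 in pre-A20 and 88.5 and 107 in post-A20. It rose by 1.88 in βgal livers with 0.14 in A20 livers, a difference of −1.75 ± 0.17 (adjusted p = 0.0646). Arg2, the mitochondrial arginase, read 77.0 and 65.2, then 284 and 282 in βgal livers, and 54.6 and 62.1, then 71.7 and 81.5 in A20 livers. Its difference was −1.47 ± 0.15 (adjusted p = 0.0646), and its second probe set gave −1.55. Crybb3, a beta crystallin, read 623 and 515 in post-βgal and 170 to 190 on the other 6 arrays (−1.66 ± 0.18, adjusted p = 0.0794). In these 3 genes the post-βgal arrays stood alone, and the other 6 arrays lay close together.

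Ppp1r3g, a glycogen-targeting subunit of protein phosphatase 1, had opposite responses, reading 73.0 and 57.7 in pre-βgal, 129 and 149 in post-βgal, 119 and 130 in pre-A20 and 45.98 and 54.6 in post-A20. It rose by 0.93 in βgal livers and fell by 1.08 in A20 livers, a difference of −2.02 ± 0.17 (adjusted p = 0.0646). Slc39a10, a zinc importer, read 79.6 and 139, then 417 and 365 in βgal livers, and 313 and 328, then 154 and 189 in A20 livers. Its difference was −2.59 ± 0.31 (adjusted p = 0.108), with −0.65 from a second, dimmer probe set. Il1r2 is also a neutrophil gene, as is Mmp8, a collagenase of neutrophil granules, whose response was 1.37 in βgal livers, where it rose, and 0.09 in A20 livers (difference −1.28 ± 0.18). Other neutrophil markers differed less. S100a8, a calcium-binding protein abundant in neutrophils, had responses of 1.22 and 1.07 and a difference of −0.15. The median of the 14 neutrophil markers tested was 0.10. At an unadjusted p under 0.05, 2 (14.3%) had a higher and 2 (14.3%) a lower response, against 9.97% and 5.71% of all genes. The former were Lcn2 and Cxcr2, a chemokine receptor, and the latter Il1r2 and Mmp8. The summed signal of these markers ran from 8097 to 8437 in pre-βgal and 20860 to 22047 in post-βgal, and from 4063 to 4239 in pre-A20 and 16317 to 18319 in post-A20. Lcn2, which hepatocytes also make, is among these markers and gave most of that sum after resection. The part of neutrophils in the values of Il1r2 and Mmp8 was not tested.

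The gene with the lowest value of those named was a clock output gene. In the molecular clock, CLOCK or NPAS2 with ARNTL activates Per, Cry, Nr1d and Dbp genes, and the REV-ERB proteins made from Nr1d1 and Nr1d2 repress Arntl in return. Dbp, which passes the daily rhythm on to metabolic genes, read 113 and 80.9 in pre-βgal, 415 and 212 in post-βgal, 2788 and 2056 in pre-A20 and 221 and 452 in post-A20. It fell by 2.85 in A20 livers and had an estimate of 1.49 in βgal livers, a difference of −4.34 ± 0.56 (adjusted p = 0.138), with −2.66 from a second probe set. Both pre-A20 arrays stood far above the other 6, and the groups after resection overlapped. Nr1d2 had the same form, with 266 and 507 in pre-βgal, 652 and 919 in post-βgal, 1912 and 2161 in pre-A20 and 901 and 1094 in post-A20. Its difference was −2.06 ± 0.43, with −0.31 from a dimmer probe set.

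Genes of the opposite arm differed the other way. Arntl read 306 and 376, then 198 and 232 in βgal livers, and 160 and 146, then 298 and 229 in A20 livers (1.34 ± 0.23, with 0.42 from a dimmer probe set). Npas2, the partner of ARNTL, had responses of −1.24 and 0.08 and a difference of 1.31. Of the 19 clock genes tested, 7 (36.8%) had a lower and 3 (15.8%) a higher response under A20 at an unadjusted p under 0.05. The shares of all genes were 5.71% and 9.97%. In each direction 2 clock genes met the interval criterion. Per2 and Per3 had differences of −0.01 and 0.12, while that of Per1 was −1.07. Tef, a factor related to Dbp, had a difference of −0.95. The hour of day at which each pool was taken was not given in the sources used here, and its part in these values was not tested.

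The promoter of Dbp is shown as the leading gene with a lower response under A20 that had a RefSeq window. It covers the 250 bases before the start at chr7:45704997-45705246 of GRCm38.p6, plus strand, written 5′ to 3′, with matches to the motifs in capitals. The motifs were searched on both strands, and a match describes letters and not a bound site.
Dbp: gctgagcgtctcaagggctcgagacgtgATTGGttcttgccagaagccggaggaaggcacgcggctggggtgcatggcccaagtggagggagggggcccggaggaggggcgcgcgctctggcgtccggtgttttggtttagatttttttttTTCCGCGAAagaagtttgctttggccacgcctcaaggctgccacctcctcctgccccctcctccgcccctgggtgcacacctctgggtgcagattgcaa
The capitals mark a CCAAT box on the reverse strand, 222 to 218 bases before the start, and a GAS element (TTCNNNGAA), the recognition letters of STAT factors, 99 to 91 bases before it. Among all 32807 promoter windows of the same length, CCAAT occurred in 33.8% and the GAS element in 7.02%.

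Serpina4-ps1, a pseudogene of the kallistatin family, came next to Dbp in size. It read 380 and 251 in pre-βgal, 1688 and 594 in post-βgal, 2255 and 1844 in pre-A20 and 748 and 330 in post-A20, a difference of −3.65 ± 0.74. Its other probe sets gave −3.47 and −3.90, and reads of near-identical serpins cannot be told apart from its own on the array. All 20 leading genes (the 10 in each direction whose intervals lay farthest from 0) met the interval criterion in each of the 9 fits with arrays left out.

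Genes of sterol synthesis, which the factor SREBP2 induces when cells lack cholesterol, had lower responses under A20. Msmo1, which removes methyl groups from lanosterol-derived sterols, read 516 and 1080 in pre-βgal, 2188 and 2381 in post-βgal, 2120 and 2753 in pre-A20 and 1416 and 1618 in post-A20. Its responses were 1.59 and −0.67, a difference of −2.26 ± 0.45, with −0.40 from a dim second probe set. Sqle, squalene epoxidase, rose by 1.78 in βgal livers and had an estimate of 0.45 in A20 livers, a difference of −1.33 ± 0.35. Of the 19 genes of the list, 8 (42.1%) had a lower response under A20 at an unadjusted p under 0.05 and none a higher one, against 5.71% and 9.97% of all genes. The median was −0.25, and it ran from −0.53 (without pre-βgal replicate 1) to −0.14 (without post-A20 replicate 2), with −0.35 without both βgal replicate 1 arrays. Msmo1, Stard4, Sqle and Hsd17b7 met the interval criterion. The count of lower responses stayed between 5 and 8 with 1 array left out, but Stard4 and Sqle did not meet the interval criterion in 5 and 7 of the 9 fits.

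Other lipid genes differed in both directions. Lpin1, the phosphatidate phosphatase of triglyceride synthesis and a coactivator of PPARα, read 503 and 387 in pre-βgal, 2095 and 1143 in post-βgal, 819 and 632 in pre-A20 and 453 and 614 in post-A20. It rose by 1.77 in βgal livers with −0.44 in A20 livers, a difference of −2.21 ± 0.44, and its second probe set gave −2.16. Thrsp, a lipogenic gene, fell by 1.29 in βgal livers and by 2.74 in A20 livers, from 9399 and 11530 in pre-A20 (−1.44 ± 0.33, with −2.25 and −0.07 from other probe sets). Srebf1, the lipogenic SREBP gene, fell by 1.60 in βgal livers with −0.59 in A20 livers, a difference of 1.01 ± 0.28. Of 29 genes of fatty acid and triglyceride synthesis, 5 (17.2%) had a higher and 3 (10.3%) a lower response under A20 at an unadjusted p under 0.05. Their median was 0.24, and the shares of all genes were 9.97% and 5.71%. Of 25 genes around PPARα, the fatty acid receptor, 5 (20%) had a higher and 2 (8%) a lower response, with a median of −0.13. Its targets Cyp4a14, a fatty acid hydroxylase, and Pdk4, which holds back pyruvate oxidation, met the interval criterion. Cyp4a14 read 814 and 1221, then 1988 and 2421 in βgal livers, and 195 and 125, then 1074 and 2038 in A20 livers, a difference of 1.99 ± 0.49. Pdk4 rose by 1.86 in βgal livers and by 3.45 in A20 livers (1.59 ± 0.41), which did not meet the interval criterion in 4 of the 9 fits and was 0.95 without both βgal replicate 1 arrays.

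Mitosis genes had a higher response under A20 as a group of many small values. Of 59 G2/M and mitosis genes tested, 55 had a difference of responses above 0, with a median of 0.54. At an unadjusted p under 0.05 there were 27 (45.8%) with a higher response and none with a lower one, against 9.97% and 5.71% of all genes. The median response was −0.03 in βgal livers and 0.46 in A20 livers. In A20 livers 9 members rose, against 0.63% of all genes. None passed the test in βgal livers, where 1.5% of all genes rose and 0.748% fell, so that absence is near the share of all genes. Top2a, the topoisomerase that untangles sister chromatids, read 824 and 628 in pre-βgal, 867 and 874 in post-βgal, 425 and 419 in pre-A20 and 1080 and 1237 in post-A20. It rose by 1.42 in A20 livers with 0.27 in βgal livers, a difference of 1.15 ± 0.25, and its dimmer probe sets gave 0.26 and 0.32. Ncapg, a condensin subunit, rose by 1.16 in A20 livers with 0.12 in βgal livers, and Ect2, needed for cytokinesis, by 1.11 with 0.22. The difference for Ncapg was 1.04 ± 0.26, but 0.34 ± 0.15 from a second probe set of like brightness. Racgap1, the partner of Ect2 at the cleavage site, had responses of −0.15 and 0.62. Top2a and Mki67 were the 2 members that met the interval criterion, Top2a not in 6 of the 9 fits. Mki67, which encodes the proliferation marker Ki67, read 721 and 870 in post-A20 and 257 to 724 on the other arrays.

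The summed signal of the 59 mitosis genes was 41815 and 41364 in post-A20 and 29193 to 34908 on the other 6 arrays, with no overlap. With 1 array left out the count of higher responses stayed between 17 and 30 and the median between 0.50 and 0.58, and without both βgal replicate 1 arrays they were 26 and 0.53. The calls within A20 livers were less stable, with none without either pre-A20 array or post-A20 replicate 2. Genes of DNA replication, the step before, had a median of 0.17 (41 tested). At an unadjusted p under 0.05, 3 (7.32%) had a higher and 1 (2.44%) a lower response, below the 9.97% and 5.71% of all genes. Mcm10, a replication initiation factor, fell by 1.71 in A20 livers with −0.43 in βgal livers. Its difference was −1.28 ± 0.35, with −0.085 and 0.052 from dimmer probe sets. Among 24 G1/S regulators 5 (20.8%) had a higher and 1 (4.17%) a lower response, against the same 9.97% and 5.71% of all genes. The lower one was Ccne2, cyclin E2 (−0.97 ± 0.35). Rb1, the restraint on E2F factors, was among the higher ones (1.14 ± 0.33), and Cdk2, the partner kinase of cyclin E, had −0.50 ± 0.22.

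**Figure D4:**
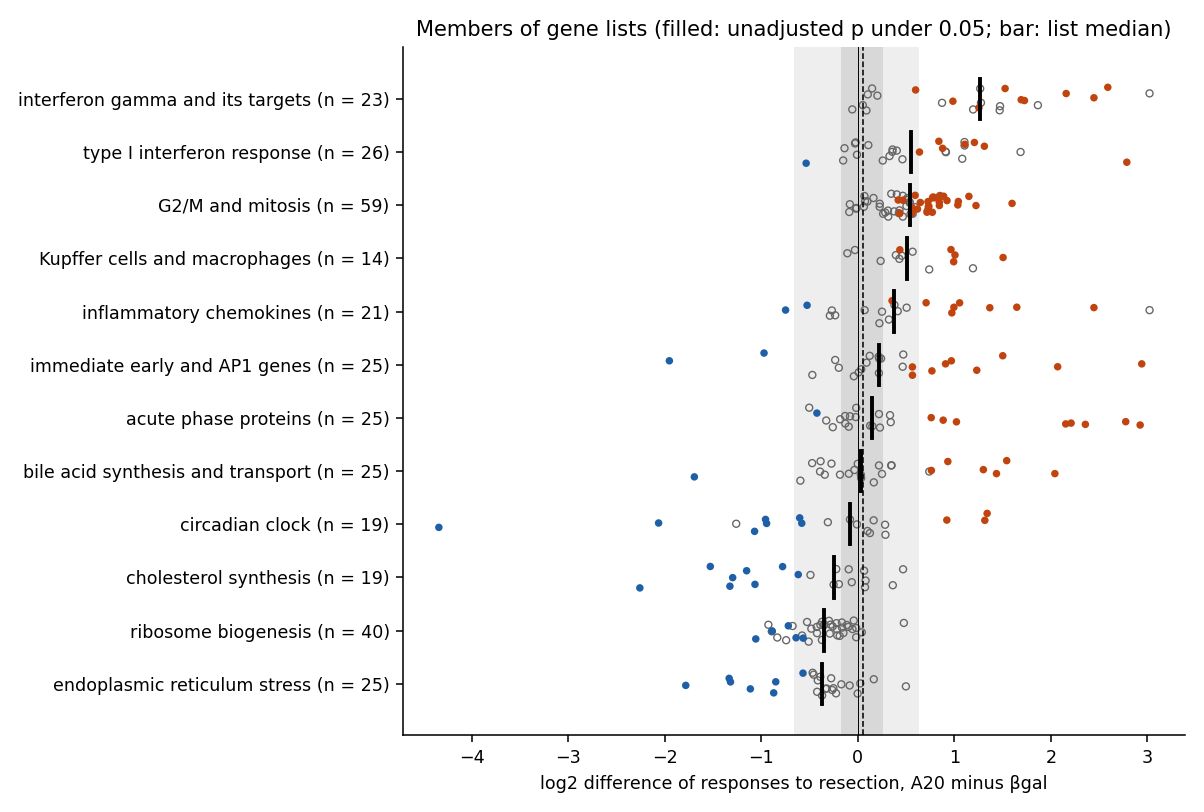
Log2 difference of responses (horizontal) of each member of 12 gene lists, filled where the unadjusted p was under 0.05, with a bar at the list's median, a dashed line at the median of all genes, and shades for the middle 50% and 90% of all genes. Interferon gamma targets lay farthest to the right (median 1.27) and genes of endoplasmic reticulum stress farthest to the left (median −0.37).

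Interferon gamma targets had the highest median of all lists, but the arrays of 1 group disagreed. Of 23 genes tested, 22 had a difference of responses above 0, with a median of 1.27. At an unadjusted p under 0.05, 9 (39.1%) had a higher response under A20, against 9.97% of all genes. The median response was −0.82 in βgal livers and 0.41 in A20 livers, and no member passed the test in either. The summed signal was 62600 and 60314 in pre-βgal, 26629 and 37009 in post-βgal, 29654 and 27544 in pre-A20, and 59830 and 22648 in post-A20. Post-A20 replicate 1 was thus close to pre-βgal, and replicate 2 was the lowest of all arrays. The median was 0.49 without post-A20 replicate 1 and 2.06 without replicate 2, with 5 and 17 higher responses. Without post-βgal replicate 1 or pre-A20 replicate 1 the count of higher responses was 0, and without both βgal replicate 1 arrays it was 1.

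Cxcl9, a chemokine that attracts T cells, read 3143 and 3162 in pre-βgal, 1408 and 2102 in post-βgal, 490 and 587 in pre-A20 and 3596 and 737 in post-A20. Its difference was 2.45 ± 0.87, and 1.31 without post-A20 replicate 1. Irf1, a transcription factor of the response, read 3395 and 1110 in post-A20 and had a difference of 1.69 ± 0.63. Gbp6, a guanylate-binding protein, read 4736 and 903 in post-A20 (2.59 ± 0.92). The members of this family share sequence and their probe sets may read more than 1 of them. Ubd, which encodes the ubiquitin-like protein FAT10, read 1049 and 605, then 414 and 537 in βgal livers, and 209 and 212, then 1242 and 276 in A20 livers (2.16 ± 0.84). Ubd, Gbp6 and Cxcl9 met the interval criterion, but not in 7, 6 and 4 of the 9 fits. Ifng, the cytokine itself, read 39.2 to 87.6 on all arrays, with a difference of 0.60 ± 0.26.

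The promoters of Cxcl9 and Irf1 are shown because their genes lead the list with the highest median. They cover the 250 bases before the start, at chr5:92328080-92328329 (minus strand) and chr11:53769764-53770013 (plus strand, the first of 2 RefSeq starts) of GRCm38.p6, written 5′ to 3′ with motif matches in capitals.
Cxcl9: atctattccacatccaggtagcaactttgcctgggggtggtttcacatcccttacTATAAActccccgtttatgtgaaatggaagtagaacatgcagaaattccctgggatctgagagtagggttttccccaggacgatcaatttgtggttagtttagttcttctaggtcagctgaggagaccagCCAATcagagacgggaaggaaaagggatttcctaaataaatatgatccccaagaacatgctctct
Irf1: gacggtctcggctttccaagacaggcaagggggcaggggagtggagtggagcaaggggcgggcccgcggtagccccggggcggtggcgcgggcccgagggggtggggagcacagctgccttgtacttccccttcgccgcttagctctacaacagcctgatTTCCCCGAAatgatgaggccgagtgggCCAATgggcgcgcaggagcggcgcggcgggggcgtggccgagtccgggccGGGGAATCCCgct
In Cxcl9 the capitals mark a TATAAA element 195 to 190 bases and a CCAAT box 65 to 61 bases before the start. In Irf1 they mark a GAS element at 90 to 82, a CCAAT box at 63 to 59 and an NF-kB motif at 13 to 4 bases before it. The NF-kB motif occurred in 3.9% of all windows and TATAAA in 12.4%. The interferon-stimulated response element (ISRE), found in 2.97%, was not among the letters of either window.

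Other immune lists also had medians above that of all genes. For their counts below, 9.97% of all genes had a higher and 5.71% a lower response at an unadjusted p under 0.05. Of 26 type I interferon genes 7 had a higher response under A20 and 1 a lower one at an unadjusted p under 0.05 (median 0.55, and 0.33 without post-A20 replicate 1). The count of higher responses was 1 without both βgal replicate 1 arrays and 15 without post-A20 replicate 2. Rsad2, the antiviral protein viperin, led them with 4282 and 1962 in pre-βgal, 721 and 1016 in post-βgal, 405 and 363 in pre-A20 and 1482 and 437 in post-A20 (2.79 ± 0.79). Of 15 antigen presentation genes 3 had a higher response (median 0.71), among them Tap1, a peptide transporter (1.58 ± 0.61, with −0.23 to 0.23 from dim probe sets), and without post-A20 replicate 1 none did and the median was 0.06. The count was also 0 when pre-βgal replicate 1, pre-A20 replicate 2 or 1 of the post-βgal arrays was left out, and 10 without post-A20 replicate 2. Of 21 chemokines 8 had a higher and 2 a lower response (median 0.38), and the replicates agreed better for Ccl5, a T cell chemokine, with 799 and 762, then 586 and 568 in βgal livers, and 362 and 331, then 567 and 521 in A20 livers (1.05 ± 0.19). Among 14 markers of Kupffer cells and macrophages 5 had a higher response and none a lower one (median 0.51, with and without post-A20 replicate 1), and their summed signal was 15221 to 16301 in pre-βgal, 11041 to 13727 in post-βgal, 8784 to 8872 in pre-A20 and 11234 to 14325 in post-A20. Csf1r, the receptor for macrophage colony-stimulating factor, read 2638 and 2540, then 1714 and 2124 in βgal livers, and 1497 and 1227, then 2073 and 1966 in A20 livers (1.01 ± 0.25, with 0.40 and 0.26 from dimmer probe sets). Of 15 T and NK cell markers 5 had a higher response and none a lower one (median 0.34), with summed signals of 3499 to 4589 on all arrays. The part of these cells in the values of the interferon and chemokine genes was not tested. Hepatocyte markers stood near 0 (median 0.02, 10 tested).

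**Figure D5:**
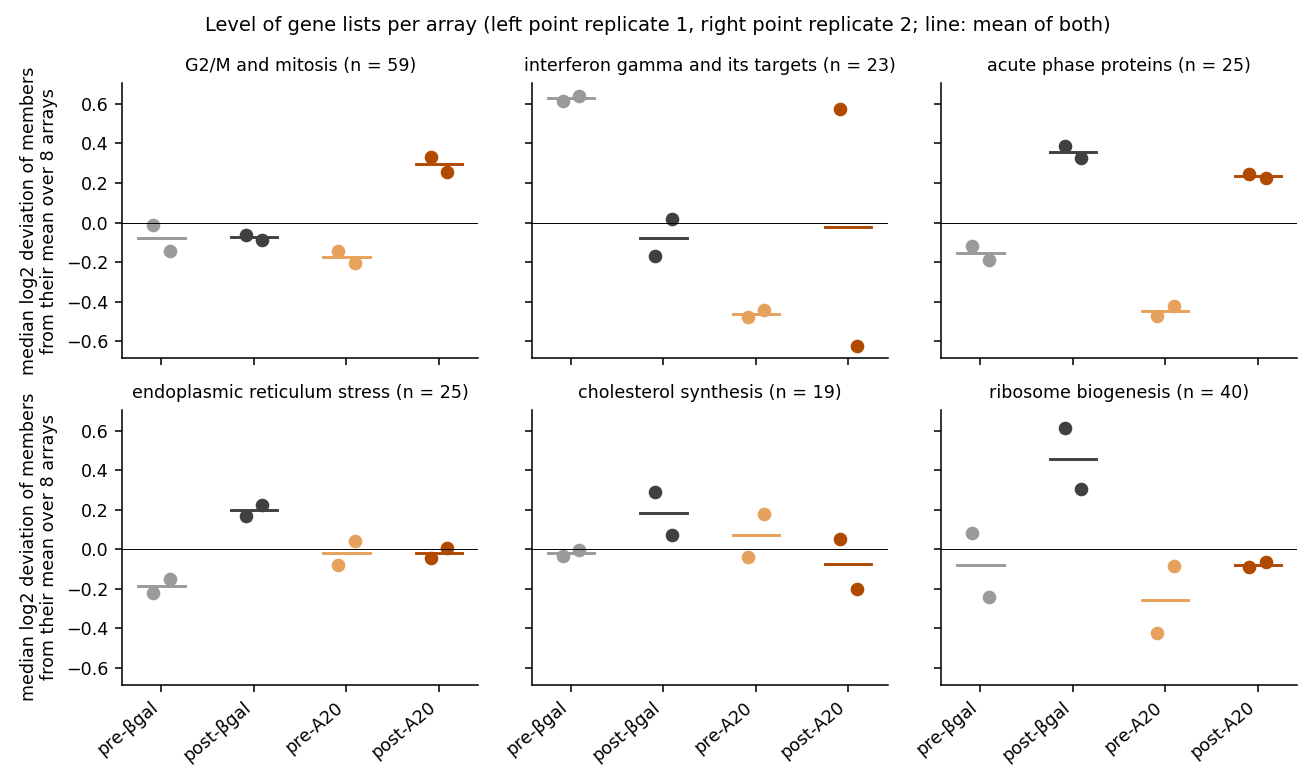
Median log2 deviation of a list's members from their own mean over the 8 arrays (vertical), for 6 lists, with 1 point per array, replicate 1 on the left, and a line at the mean of both arrays. Mitosis genes were highest in both post-A20 arrays, interferon gamma targets had the post-A20 replicates far apart, and endoplasmic reticulum stress and ribosome biogenesis genes were highest in post-βgal.

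Genes of endoplasmic reticulum stress had lower responses under A20. These genes encode chaperones and sensors that cells raise when proteins misfold in the secretory pathway. Of 25 tested, 22 had a difference of responses below 0. At an unadjusted p under 0.05, 7 (28%) had a lower response and none a higher one, against 5.71% and 9.97% of all genes. The median response was 0.39 in βgal livers and −0.13 in A20 livers, and the median difference was −0.37. Creld2, a disulphide isomerase of the endoplasmic reticulum, read 1236 and 1381 in pre-βgal, 2856 and 2816 in post-βgal, 1253 and 1760 in pre-A20 and 1065 and 802 in post-A20. It rose by 1.11 in βgal livers with −0.67 in A20 livers, a difference of −1.78 ± 0.31 (adjusted p = 0.212). Chac1, which degrades glutathione and is a target of ATF4, had responses of 0.94 and −0.38, and Dnajc3, a cochaperone of BiP, had 0.58 and −0.30. Manf, a secreted stress protein, had 0.98 and −0.13, and Hspa5, BiP itself, had 0.43 and −0.14. Other members had like responses in both, such as Asns, asparagine synthetase, with 0.76 and 0.76, and Eif2ak3, the sensor PERK, with 0.77 and 0.79. The count of lower responses stayed between 4 and 9 with 1 array left out and was 8 without both βgal replicate 1 arrays, but Chac1 did not meet the interval criterion in 4 of the 9 fits.

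The promoters of Creld2, Chac1 and Dnajc3 are shown because their genes lead the list with the lowest median. They cover the 250 bases before the start at chr15:88819396-88819645, chr2:119350992-119351241 and chr14:118937682-118937931 of GRCm38.p6, all on the plus strand, with motif matches in capitals.
Creld2: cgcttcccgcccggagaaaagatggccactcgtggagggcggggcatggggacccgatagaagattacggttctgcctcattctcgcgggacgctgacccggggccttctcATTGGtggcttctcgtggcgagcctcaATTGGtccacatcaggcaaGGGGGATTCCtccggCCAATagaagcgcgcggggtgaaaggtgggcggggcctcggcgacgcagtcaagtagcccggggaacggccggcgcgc
Chac1: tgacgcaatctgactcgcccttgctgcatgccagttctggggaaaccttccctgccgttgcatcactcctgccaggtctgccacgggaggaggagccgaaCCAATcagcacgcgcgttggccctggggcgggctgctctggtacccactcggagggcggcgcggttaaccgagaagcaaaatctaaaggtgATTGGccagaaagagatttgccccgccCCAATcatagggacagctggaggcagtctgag
Dnajc3: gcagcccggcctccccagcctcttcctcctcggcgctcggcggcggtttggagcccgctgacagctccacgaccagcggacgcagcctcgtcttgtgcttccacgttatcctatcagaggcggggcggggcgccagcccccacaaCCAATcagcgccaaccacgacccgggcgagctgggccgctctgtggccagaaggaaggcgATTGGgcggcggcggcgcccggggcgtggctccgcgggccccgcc
CCAAT boxes were found in all of them, 3 in Creld2, 3 in Chac1 and 2 in Dnajc3, counting both strands. Creld2 also held an NF-kB motif 93 to 84 bases before the start. The other motifs searched, the CHR element TTTGAA (5243 of the 32807 windows) and the E2F element TTTGGCGC or TTTCCCGC (1.3%), were not among the letters of these windows.

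Ribosome biogenesis genes, which prepare rRNA and assemble ribosomes in the nucleolus, had the same direction with smaller values. Of 40 tested, 38 had a difference of responses below 0, and 5 had a lower response under A20 at an unadjusted p under 0.05 (12.5%, against 5.71% of all genes). The median response was 0.53 in βgal livers and 0.10 in A20 livers, and the median difference was −0.35. This median was −0.18 without pre-βgal replicate 2, where 10 members lay above 0, −0.56 without pre-βgal replicate 1 and −0.41 without both βgal replicate 1 arrays. Npm1, nucleophosmin, read 1221 and 1556 in pre-βgal, 3014 and 2901 in post-βgal, 1610 and 2203 in pre-A20 and 1778 and 2093 in post-A20. It rose by 1.09 in βgal livers with 0.03 in A20 livers, a difference of −1.06 ± 0.30. Nop58, of the box C/D particles that guide rRNA methylation, rose by 1.37 with 0.48 in A20 livers, and Ddx21, a nucleolar helicase, rose by 1.29 with 0.78. The differences of Utp18 and Utp20, of the small subunit processome, were −0.64 and −0.57. The count ran from 2 (without post-A20 replicate 1 or pre-A20 replicate 2) to 12 (without pre-βgal replicate 1). Cytosolic ribosomal proteins themselves (33 tested) had 2 lower and no higher responses at an unadjusted p under 0.05, with a median of −0.18. That share (6.06%) is near the 5.71% of all genes, and without pre-βgal replicate 2 the median was 0.015 and no member had a lower response.

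The last genes were chosen from those measured by PCR or named in the study. Of these, Ubd (above) met the interval criterion, and the other genes did not when read through their brightest probe set. Cdkn1a, the cell cycle inhibitor p21, read 3560 and 2700 in pre-βgal, 4669 and 3864 in post-βgal, 1008 and 775 in pre-A20 and 2313 and 1882 in post-A20. Its responses were 0.45 and 1.22, a difference of 0.77 ± 0.32 (adjusted p = 0.302), and a second probe set gave −0.22. All 4 A20 arrays lay below all 4 βgal arrays. Ppara, the fatty acid receptor, had −0.16 ± 0.45, with −0.43 and −0.98 from its other probe sets, and its target Cpt1a, which takes fatty acids into mitochondria, had −0.77 ± 0.72, and −0.23 without both βgal replicate 1 arrays. The mitochondrial carriers Slc25a10 and Slc25a13 had 0.61 ± 0.31 and 0.04 ± 0.75. Tnfaip3, the mouse gene for A20, read 927 and 574, then 366 and 531 in βgal livers, and 170 and 162, then 472 and 202 in A20 livers, a difference of 1.55 ± 0.54, with 0.37 from a dimmer probe set and 0.95 without both βgal replicate 1 arrays. Ccna2, cyclin A2, had 1.04 ± 0.40, and Tgfbr1, the type I receptor for TGF-beta, had −0.53 ± 0.21, with −0.51 and 0.07 from dim probe sets. Lepr, the leptin receptor, Nr3c1, the glucocorticoid receptor, and Cav1, caveolin 1, had −0.14 ± 0.17, −0.15 ± 0.48 and 0.52 ± 0.25. The dimmer probe sets of Lepr disagreed with this value and with each other, giving −2.995 ± 0.30, −1.66 ± 0.38 and 0.28 ± 0.14, so the direction for Lepr depends on the probe set read.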

How the data were processed

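Liver RNA of 4 groups (2 arrays each) was read on Affymetrix Mouse Genome 430 2.0 arrays. The deposited values are linear signal intensities that the authors had normalized (invariant set normalization in dChip per the study's methods, MAS5 per the sample records, which the files do not settle). They were used as deposited. Log2(value + 16) was fitted with limma 3.58.1 in R 4.3.3, with 1 mean per group and a variance trend over the 42703 of 45101 probe sets whose mean reached 40 in at least 1 group. Platform annotation gave 34945 probe sets 1 symbol, 932 several and 9160 none, and 64 were controls. Each of 17790 genes was read through its brightest probe set with 1 symbol, with Benjamini-Hochberg adjustment over these genes. Changes of dim genes are understated by the offset. The number of arrays limits the precision. The procedure was tested on simulated data.

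The genes and the lists (44 of pathways and 9 of cell types) were chosen with earlier results of these data known. Named were, in each direction, the 10 genes meeting the interval criterion with the near end farthest from 0, a mean of at least 100 in 1 group and responses that did not overlap, the study's genes, and up to 4 members per list by smallest p. Other members named were chosen after their values were seen. Promoters were those of leading genes and of the lists with the highest and lowest median, and 8 of the 10 genes selected had a RefSeq window. Alternatives covered normalization, offset, filter, probe sets, variance model, replicate block, RNA integrity and arrays left out, with the variance model on the genes' own probe sets chosen after seeing the data.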

Additional observations from a re-analysis of the deposited data

How the results depend on the processing

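No gene was called in the difference of responses with the processing reported, and the alternatives gave 1 with quantile normalization (Ppp1r3g), 2 with median centring, 3 with an offset of 32, 1 without variance moderation (Ppard), 1 over every probe set (B3galt1), 4 with the mean of a gene's probe sets (Arg2, Il1r2, Ppp1r3g and Crybb3) and 5 with the variance model on the genes' own probe sets (Ppp1r3g, Arg2, Crybb3, Il1r2 and Slc39a10). Median centring gave 63 higher against 169 lower responses by the interval criterion, in place of 102 and 117. It shifts the difference of every gene, and so every list median, by the same amount. The median over all genes was −0.034 with it, in place of 0.054, so list medians close to 0 can change sign. Every probe set gave 178 and 219, a bound of 2-fold 23 and 22, a 95% interval 53 and 48, and no moderation 57 lower ones. For resection in βgal and in A20 livers the calls were 0 and 0 without moderation, 638 and 275 with the mean of probe sets, 710 and 358 with the variance model on the genes' own probe sets, and 122 and 517 without both βgal replicate 1 arrays. That last fit shared 109 of the 219 genes (49.8%). With the RNA integrity ratio as a covariate, 125 genes were called in the difference, 167 and 200 met the criterion, and 2362 and 1052 were called for resection. The cause of these shifts was not tested.

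Leaving out 1 array gave 0 to 12 calls in the difference, 58 to 172 higher and 58 to 352 lower responses, 34 to 660 calls in βgal livers and 6 to 473 in A20 livers. The sign turned for Ppara (−0.53 to 0.21), Cpt1a (−1.58 to 0.041), Slc25a13 (−0.88 to 0.96, and −0.048 with median centring) and Nr3c1 (−0.67 to 0.37, and 0.052 without both βgal replicate 1 arrays). The other settings (no filter or one at a mean of 100, an offset of 1, a floor of 20, no trend, robust variance) gave 0 calls in the difference.

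The sources used here do not say whether equally numbered pools before and after resection share mice, and no pairing was assumed. Replicate deviations correlated at 0.675 between pre-βgal and post-βgal but at −0.04 between pre-A20 and post-A20. A replicate block gave 0 calls, 110 higher and 157 lower responses and 514 and 195 calls for resection, and a replicate block within each transgene 24, 179, 228, 1585 and 686. The count of 0 calls in the difference is thus that of the processing reported, and several settings without pairing, given above, also called genes.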

Other observations

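Some genes that depend on growth hormone in the mouse liver fell in A20 livers, and members of their list fell in βgal livers too. Hsd3b5, a male-specific steroid enzyme, read 492 and 372, then 119 and 104 in βgal livers, and 3455 and 5134, then 501 and 167 in A20 livers. It fell by 3.78 in A20 livers with −1.80 in βgal livers, a difference of responses of −1.98 ± 0.62 on the log2 scale that did not meet the interval criterion in 4 of 9 fits with arrays left out. Serpina12, the adipokine vaspin, fell by 2.28 in A20 livers with −0.62 in βgal livers, and Sult5a1, a sulfotransferase of the conjugating enzymes, by 1.41 with −0.09. Of the 19 genes of the growth hormone list, 2 fell in βgal livers and 3 in A20 livers, against 0.748% and 0.382% of all genes. At an unadjusted p under 0.05 (limma) 2 had a higher response (10.5%) and 3 a lower one (15.8%), against 9.97% and 5.71% of all genes. The median of the list was 0.24, opposite in sign to the differences of the genes named here.

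A secreted protein, Klkb1, and an alcohol-handling enzyme, Adh1, fell in βgal livers and did not pass the test in A20 livers. Their lists as a whole stood near all genes. At an unadjusted p under 0.05 (limma), 3 of 36 coagulation and complement genes (8.33%) had a higher response and 1 a lower one (C8b, −0.91). Of 24 genes of alcohol and retinol metabolism, 3 (12.5%) had a higher response and 1 a lower one (Lrat, −0.95). Over all genes the shares were 9.97% and 5.71%. Klkb1, plasma prekallikrein, fell by 2.35 with −0.79 in A20 livers, a difference of 1.56 ± 0.25. Adh1, the main alcohol dehydrogenase, fell by 1.05 with −0.05 (1.00 ± 0.16, not met without both βgal replicate 1 arrays), and Aldh1b1, a mitochondrial aldehyde dehydrogenase, had a difference of 1.26 ± 0.26. Ppp1r3c, another glycogen-targeting subunit, read 2668 and 2115, then 725 and 491 in βgal livers, and 825 and 1038, then 1102 and 628 in A20 livers (1.81 ± 0.43), the opposite direction to Ppp1r3g. Cd24a, a surface protein of progenitor cells, rose by 3.07 in βgal livers and by 1.67 in A20 livers, from 162 and 125 to 1291 and 1336 and from 89.4 and 90.2 to 264 and 387 (−1.40 ± 0.27). Its list went mostly the other way, since 8 of the 10 cholangiocyte and progenitor markers tested lay above 0 (median 0.27). At an unadjusted p under 0.05, 2 of them had a lower and 0 a higher response.

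Subunits of the nuclear-encoded respiratory chain and of the proteasome had medians a little below 0 that rest on single arrays. Of 50 respiratory chain genes 7 lay above 0 (median −0.19) and 3 had a lower response at an unadjusted p under 0.05, near the 5.71% of all genes. Without pre-βgal replicate 2, 20 lay above 0 and the median was −0.04. Of 31 proteasome genes 5 lay above 0 (median −0.23) and none passed an unadjusted p of 0.05. With 1 array left out the proteasome median ran from −0.37 (without pre-A20 replicate 1) to −0.08 (without pre-A20 replicate 2).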
